A study of Mus musculus with 32 samples.

Results

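The transcripts of 5 genes of the organic anion transporter family Slco, namely Slco1a1, Slco1a4, Slco1b2, Slco2a1 and Slco2b1, were followed across the livers of 32 mice. The 5 genes were taken by name out of the 17 genes of the Slco family in the mouse annotation, which include Gm5724 and Gm6614, among 35523 genes with summed counts. The rule itself uses no measured value, but the genes were chosen with earlier results of these data known. Nudt7-/- (KO) mice and their WT littermates, all on a C57BL/6J background, were compared in both sexes and on 2 diets, with 4 mice in each of 8 groups. Nudt7 encodes a peroxisomal enzyme that hydrolyzes coenzyme A. The KO mice carry a whole-body deletion of its exons 3 and 4, made by CRISPR/Cas9 in FVB zygotes. The deletion was passed on from 1 founder and backcrossed onto C57BL/6J for 6 generations. The Western diet (WD) had 41% of its energy from fat and 0.2% cholesterol, the low-fat control diet (CD) had 10% and 0%, and either was eaten from 6 weeks of age until the livers were taken at 17 to 20 weeks. The groups are written as KOF-WD, WTF-WD, KOF-CD and WTF-CD for females and KOM-WD, WTM-WD, KOM-CD and WTM-CD for males. Whether these livers came from fed or fasted mice is not given in the sources used here.

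Organic anion transporting polypeptides, the products of the Slco genes, carry large amphipathic anions across the plasma membrane without sodium. In the liver, members on the sinusoidal face of hepatocytes take up bile acids, conjugated bilirubin, conjugated steroids, thyroid hormones and many drugs from the blood. Rodent livers are known for a male-predominant Slco1a1 and for a female-predominant Slco1a4, which is also a textbook target of the xenobiotic receptors CAR and PXR.

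The estimated counts of a library summed to between 10140048 and 15825078 (median 13000302), and levels are given as CPM, counts scaled to the library total after TMM normalization, which adjusts that total for differences in composition. The targeted gene Nudt7 was at 32.4 ± 11.0 CPM in KOF-CD livers, against 177 ± 44.4 CPM in WTF-CD livers, and at 140.6 ± 90.0 CPM in KOM-CD livers, against 484 ± 163 CPM in WTM-CD livers (SD, n = 4 each). Of the 4 Y-linked genes used as a label check, 4 were lower in females. By transcripts of pancreatic acinar cells 4 libraries stood apart, WTF-CD replicates 2 and 4, KOF-CD replicate 3 and WTF-WD replicate 4, with 463 to 6086 CPM summed over 13 acinar genes, against a median of 15.7 CPM over the 32 libraries. Calls for the Slco genes that change without these libraries are given both ways. The 8 hepatocyte markers were high in every library, at 47154 to 102714 summed CPM. Markers of other liver cells were called higher in females by edgeR in 6 of 12 for sinusoidal endothelial cells, 7 of 10 for Kupffer cells, 3 of 10 for stellate cells, 1 of 6 for cholangiocytes and 2 of 7 for lymphocytes, and none lower, where 31.6% of all genes were called. Without the acinar libraries the counts were 10 of 12 for endothelial cells, 5 of 10 for Kupffer cells and 1 of 6 for lymphocytes, with those of stellate cells and cholangiocytes at 3 and 1. The share of all genes called without these libraries was not counted, for these lists or for those below. Counts without them therefore cannot be set beside the 31.6%. The part of these markers in the sex differences of the Slco genes was not tested.

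Of the 5 genes, 3 lie near each other on chromosome 6 in an Slco cluster. In GRCm38 coordinates, Slco1b2 (ENSMUSG00000030236) spans chr6:141629518-141686646 on the plus strand, Slco1a4 (ENSMUSG00000030237) spans chr6:141805440-141856199 on the minus strand, and Slco1a1 (ENSMUSG00000041698) spans chr6:141907282-141946962 on the minus strand. Slco2b1 (ENSMUSG00000030737) spans chr7:99657804-99711340 on the minus strand and Slco2a1 (ENSMUSG00000032548) spans chr9:102988712-103096002 on the plus strand. The 250 bases before the RefSeq start site of the 3 clustered genes are shown, from RefSeq with the GRCm38.p6 build, because these neighbours differed from each other between the sexes. All 5 genes matched the promoter table. The windows are chr6:141946963-141947212 (minus strand) for Slco1a1, chr6:141856221-141856470 (minus strand) for Slco1a4 and chr6:141629268-141629517 (plus strand) for Slco1b2, each written 5′ to 3′ on the strand of its gene. Capitals mark matches, on either strand, to TTCNNNGAA (a STAT5 site), GTTAAT (an HNF1 motif) or AGGTCA (a nuclear receptor motif).
Slco1a1: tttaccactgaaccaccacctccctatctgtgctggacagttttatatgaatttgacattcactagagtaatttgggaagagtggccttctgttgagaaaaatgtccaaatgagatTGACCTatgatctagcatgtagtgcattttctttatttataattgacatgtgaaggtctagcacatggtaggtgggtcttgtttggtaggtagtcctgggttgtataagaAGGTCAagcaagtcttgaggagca
Slco1a4: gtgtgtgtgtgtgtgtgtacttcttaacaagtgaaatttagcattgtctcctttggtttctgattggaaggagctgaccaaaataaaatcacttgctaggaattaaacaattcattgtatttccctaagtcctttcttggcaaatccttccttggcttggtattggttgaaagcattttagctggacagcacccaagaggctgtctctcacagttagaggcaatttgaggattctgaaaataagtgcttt
Slco1b2: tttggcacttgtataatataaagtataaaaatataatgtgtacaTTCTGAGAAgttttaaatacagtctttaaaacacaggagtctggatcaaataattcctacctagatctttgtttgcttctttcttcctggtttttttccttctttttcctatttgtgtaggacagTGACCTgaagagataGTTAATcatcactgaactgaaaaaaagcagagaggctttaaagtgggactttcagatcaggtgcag

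The Slco1a1 window held 2 nuclear receptor motifs, beginning 134 and 24 bases before the start site. The Slco1b2 window held 1 match to each motif, the STAT5 match beginning 206, the nuclear receptor motif 81 and the HNF1 motif 66 bases before the start site, with no overlap between them. No match was found in the Slco1a4 window. Among 32851 promoter windows of the same length, 7.02% held a STAT5 match, 6.43% an HNF1 motif and 14% a nuclear receptor motif. The main transcript of Slco1a1 and of Slco1b2 began at the RefSeq start, and that of Slco1a4 49 bases from it. For Slco2a1 the distance was 485 bases, and its window and the 3 windows of Slco2b1 are not shown.

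Slco1b2 made up most of the transcript pool of the 5 genes, as sums of TPM, which are corrected for transcript length and so allow levels of different genes to be set side by side. Slco1b2, whose product is the rodent member of the OATP1B group and takes up bilirubin conjugates and bile acids, averaged 559 TPM over the 32 livers, 70.2% of the pool, and stood at rank 191 among all genes. Slco1a1 averaged 92.6 TPM (rank 1105), Slco2b1 77.3 TPM (rank 1288), Slco1a4 52.9 TPM (rank 1780) and Slco2a1 14.3 TPM (rank 4970). The summed TPM of the 5 genes lay between 652 ± 208 in WTF-CD livers and 958 ± 128 in WTM-WD livers (SD, n = 4 each). In its makeup, Slco1a1 held 0.294% to 1.74% of it in the 4 female groups, against 18.1% to 24% in the 4 male groups. Slco1a4 held 10.5% to 11.2% in the female groups, against 2.33% to 3.76% in the male groups, and Slco1a1 came second to Slco1b2 in every male group and in no female group.

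**Figure D1:**
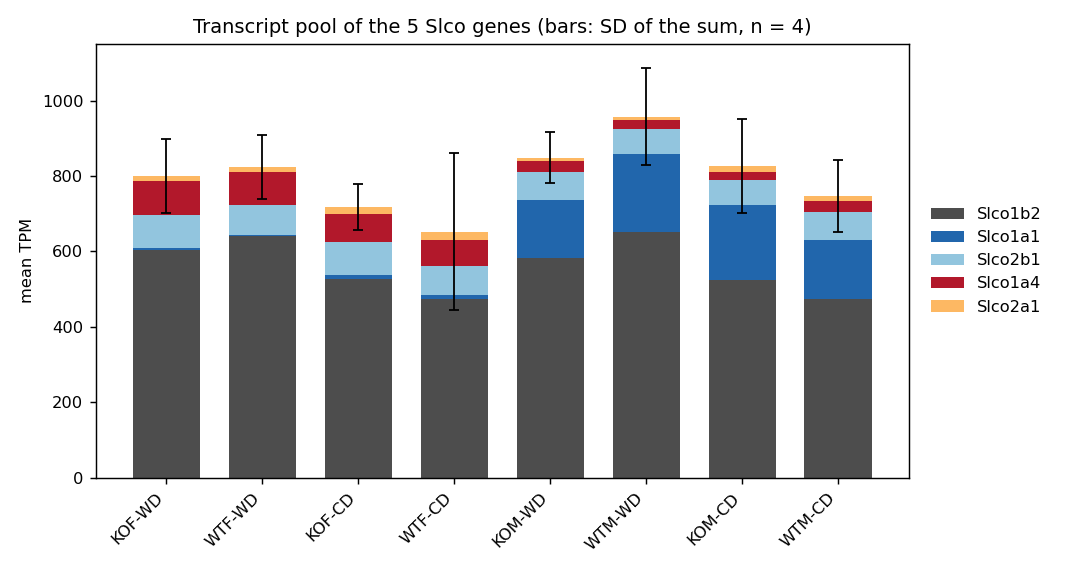
Mean TPM of the 5 Slco genes stacked by group (n = 4 livers each), with the SD of their sum. Slco1b2 forms the largest part in every group, and the Slco1a1 layer is thin in the 4 female groups, at no more than 1.74% of the sum, and wide in the 4 male groups.

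Slco1a1, which encodes a transporter of bile acids and steroid conjugates, was far lower in females. It had 9.29, 0.0603, 3.12 and 29.3 CPM in KOF-WD livers, against 322, 469, 472 and 284.5 CPM in KOM-WD livers. It had 0.0722, 0.123, 0.285 and 22.9 CPM in WTF-WD livers, against 662.5, 590.4, 645 and 527 CPM in WTM-WD livers. All female values were below all male ones, and 4 of the 8 female livers on the WD held only 1 to 4 Slco1a1 counts. On the CD it had 6.87, 33.8, 36.1 and 9.84 CPM in KOF-CD livers, against 528, 337, 587.5 and 711 CPM in KOM-CD livers. It had 6.81, 9.03, 30.7 and 57.4 CPM in WTF-CD livers, against 342, 420, 436 and 460.0 CPM in WTM-CD livers. No liver of the CD females came under 87 counts, and the highest of the 16 females (57.4 CPM) stood below the lowest of the 16 males (284.5 CPM).

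Over all 32 livers the log2 fold change of Slco1a1 between females and males was -5.14 ± 0.56 (SE), with an adjusted p of 1.13e-07 by edgeR's quasi-likelihood test with Benjamini-Hochberg adjustment over all genes tested. This is a level 35.1-fold lower in females. The log2 fold change was -6.42 without WTF-WD replicate 4 (adjusted p = 5.7e-10) and -6.63 without the 4 acinar libraries, and the gene was called in both. The background is wide, since 31.6% of all genes were called in this contrast. In bulk tissue, fewer cells of a type and less RNA per cell cannot be told apart. Within single pairs of groups the log2 fold changes were -3.99 ± 0.72 for WTF-CD against WTM-CD (adjusted p = 0.0449, where 2.24% of all genes were called), -6.68 ± 1.58 for WTF-WD against WTM-WD (0.0487, 9.64%), -4.63 ± 0.65 for KOF-CD against KOM-CD (0.0082, 6.66%) and -5.22 ± 1.15 for KOF-WD against KOM-WD (0.0397, 9.66%) in edgeR. The groups did not overlap in any of these 4 pairs.

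The calls for WT on the CD, WT on the WD and KO on the WD lay near the threshold in edgeR. The KO CD call was kept with any 1 library left out (adjusted p = 0.00999 to 0.029 in edgeR). DESeq2 kept the call in every pair. With 1 library left out, the WT CD call was lost without any of the 4 WTM-CD livers and without WTF-CD replicate 2 or 3 (adjusted p = 0.0612 to 0.121), the KO WD call without any of the 4 KOM-WD livers and without KOF-WD replicate 1 or 3 (0.0651 to 0.112), and the WT WD call without any library but WTF-WD replicate 4 (0.0793 to 0.115). One female library moved the size in other pairs too, to -4.72 without WTF-CD replicate 4 for WT on the CD and to -6.55 without KOF-WD replicate 4 for KO on the WD. Without WTF-WD replicate 4, which carried acinar transcripts and the highest Slco1a1 level of its group, the WT WD log2 fold change was -11.81 with an adjusted p of 2.8e-09, a fitted value that depends on the prior count, since the 3 WTF-WD livers left had 1 to 4 counts. Without a filter on low counts the adjusted p rose to 0.0854 for WT on the CD, 0.0791 for WT on the WD and 0.0604 for KO on the WD, and without the acinar libraries it was 0.0691 for WT on the CD.

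Slco1a4, the next gene in the cluster, whose product carries bile acids, steroid conjugates and cardiac glycosides, was higher in females. It had 149, 169, 175 and 198 CPM in KOF-WD livers, against 44.6, 77.5, 28.2 and 77.4 CPM in KOM-WD livers. It had 137, 154, 149.6 and 216 CPM in WTF-WD livers, against 38.2, 59.8, 59.4 and 40.0 CPM in WTM-WD livers. Every female liver on the WD was above every male one. On the CD it had 134, 151, 156 and 155 CPM in KOF-CD livers, against 52.1, 35.9, 51.8 and 27.2 CPM in KOM-CD livers. It had 135, 66.9, 146 and 147 CPM in WTF-CD livers, against 69.7, 51.0, 79.1 and 25.6 CPM in WTM-CD livers. Only WTF-CD replicate 2, the library with the most acinar transcripts, fell among the males. It was below WTM-CD replicates 1 and 3 and, on the other diet, below KOM-WD replicates 2 and 4.

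Slco1a4 was 2.97-fold higher in females than in males over the 32 livers, with a log2 fold change of 1.57 ± 0.16 and an adjusted p of 1.21e-08 in edgeR. In single pairs it was 1.74 ± 0.19 for WT on the WD (adjusted p = 0.000574), 1.84 ± 0.19 for KO on the CD (0.000206) and 1.59 ± 0.31 for KO on the WD (0.0206). The pair of WT groups on the CD gave 1.14 ± 0.38 and did not pass the threshold in edgeR (adjusted p = 0.212), while DESeq2 (0.0118) and the edgeR model of all 32 libraries (0.0334) called it. Of all genes, DESeq2 called 595 in this pair, against 280 by edgeR. The KO WD call was lost without KOM-WD replicate 1 (0.0587), KOF-WD replicate 2 (0.0599) or KOF-WD replicate 3 (0.056), and with no filter on low counts (0.0518).

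**Figure D2:**
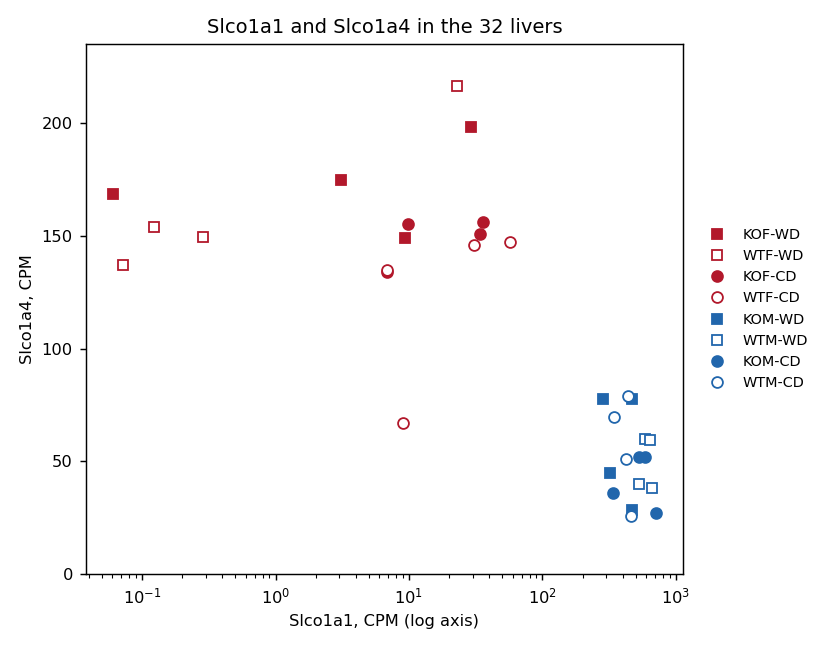
Slco1a1 (CPM, log axis) against Slco1a4 (CPM) in the 32 livers, with females in red, males in blue, filled symbols for KO, open symbols for WT, squares for the WD and circles for the CD. Females spread from 0.0603 to 57.4 CPM of Slco1a1 at 66.9 to 216 CPM of Slco1a4, and males from 284.5 to 711 CPM of Slco1a1 at 25.6 to 79.1 CPM of Slco1a4.

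The 2 genes share sequence, which bears on how Salmon could split reads between them. Of the 5302 stretches of 31 bases in the Slco1a1 transcripts, 4.02% occurred in other genes, and 134 of these were shared with Slco1a4. Of the 6407 stretches in Slco1a4, 5.03% occurred in other genes, most of them in Slco1a5, a neighbour that had at most 1 count in any library. The 4 female livers with 1 to 4 Slco1a1 counts held 137 to 169 CPM of Slco1a4.

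Slco2a1 encodes the prostaglandin transporter, which in many tissues is found in endothelial cells. Its level was 46.4 to 112.5 CPM (median 63.5) in females, against 33.6 to 95.4 CPM (median 52.6) in males. The ranges overlapped, and the mean over the 32 livers was higher in females, with a log2 fold change of 0.32 ± 0.07 (adjusted p = 0.000388 in edgeR). Of the 4 pairs behind this mean, 2 passed. The sex effect on the WD less that on the CD was 0.13 ± 0.13 (adjusted p = 0.751 in edgeR). The sex effect in KO less that in WT mice was -0.17 ± 0.13 (0.670), and neither difference was called. Differences between single pairs were not tested. KO mice on the WD gave 0.57 ± 0.09 (adjusted p = 0.00354) with no overlap of the groups, and WT mice on the CD gave 0.62 ± 0.13 (0.0268), also without overlap. WT mice on the WD gave 0.22 ± 0.10 (0.209) and KO mice on the CD -0.09 ± 0.17 (0.797). The WT CD call was lost with offsets for transcript length, which scale a gene by the mean length of its transcripts in each library (0.175), and without WTM-CD replicate 1, 3 or 4 or WTF-CD replicate 1 or 3 (0.0551 to 0.0795). Of 12 markers of sinusoidal endothelial cells, 6 were higher and none lower in females in the same contrast. Of all genes, 31.6% were called there. The median log2 fold change of the markers was 0.14, against 0.02 over all genes. Without the acinar libraries 10 markers were higher, in a fit whose share of all genes called was not counted. The part of these markers in the Slco2a1 difference was not tested.

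Slco1b2 and Slco2b1 did not pass the threshold between the sexes. Slco1b2 ranged from 609 to 1636 CPM (median 1129) in females, against 917 to 1827 CPM (median 1265) in males, and the mean log2 fold change was -0.19 ± 0.09 (adjusted p = 0.0878 in edgeR). It passed without KOM-WD replicate 1 (0.0463), WTF-CD replicate 4 (0.0428) or WTF-WD replicate 4 (0.0445), and the WT WD pair, at -0.34 ± 0.14 with all libraries (adjusted p = 0.157), passed without WTF-WD replicate 4 (-0.48, 0.0322). Slco2b1, whose product takes up sulfated steroids and many drugs, ranged from 131.5 to 213 CPM in females, against 128 to 203 CPM in males. Its log2 fold change was 0.08 ± 0.07 (adjusted p = 0.416 in edgeR), and the values of the sexes overlapped in every pair.

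**Figure D3:**
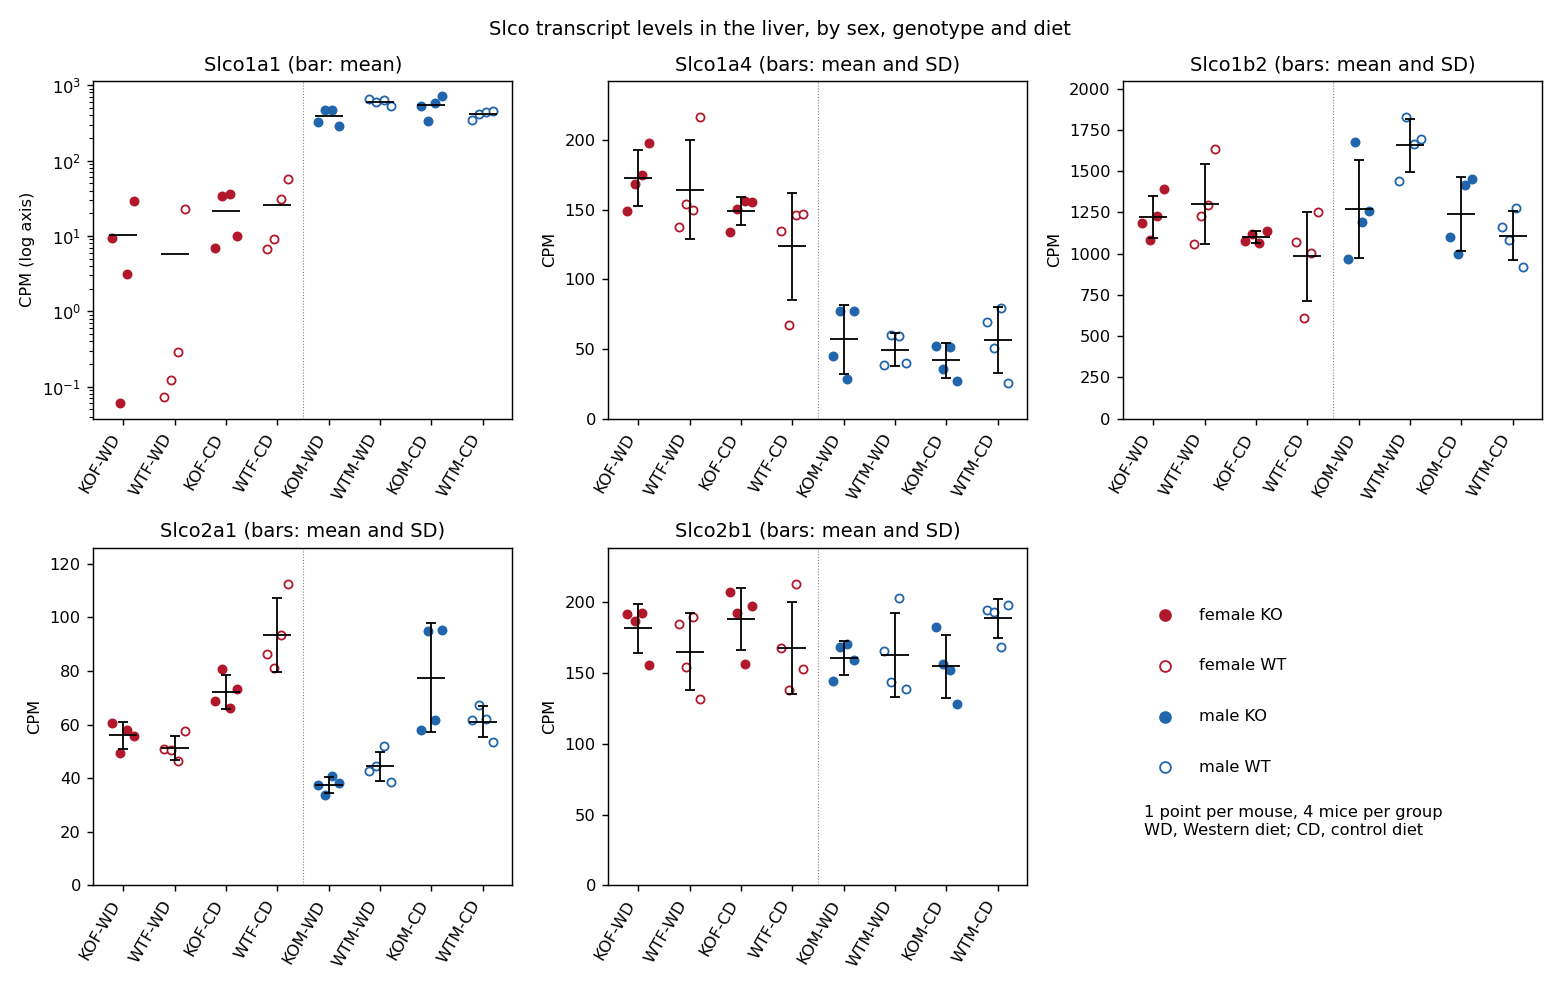
CPM of each Slco gene in each of the 32 livers by group, with 1 point per mouse and the group mean, and the SD except for Slco1a1, which is on a log axis. Females are left of the dotted line and males right of it. Slco1a1 and Slco1a4 differ between the sexes in opposite directions, with 1 WTF-CD liver among the males for Slco1a4. Slco2a1 is lower in each WD group than in its CD group.

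Slco2a1 was lower on the WD. It had 60.7, 49.2, 58.1 and 55.8 CPM in KOF-WD livers, against 68.7, 80.6, 66.3 and 73.2 CPM in KOF-CD livers. It had 50.8, 50.5, 46.4 and 57.4 CPM in WTF-WD livers, against 86.4, 81.0, 93.4 and 112.5 CPM in WTF-CD livers. In females, each WD value was under each CD value of its genotype. It had 37.5, 33.6, 40.9 and 38.1 CPM in KOM-WD livers, against 58.1, 94.9, 61.6 and 95.4 CPM in KOM-CD livers. It had 42.5, 44.6, 51.8 and 38.7 CPM in WTM-WD livers, against 61.6, 67.2, 62.2 and 53.4 CPM in WTM-CD livers. The groups were apart in males too, narrowly in WT mice, where the highest WD liver had 51.8 CPM and the lowest CD liver 53.4 CPM.

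Over the 32 livers Slco2a1 fell by 0.70 ± 0.07 on the log2 scale on the WD (adjusted p = 2.17e-08 in edgeR), a level 1.62-fold lower, where 19.4% of all genes were called. In single comparisons of the diets the log2 fold changes were -1.03 ± 0.17 in KO males (adjusted p = 0.0118, with 2.6% of all genes called), -0.88 ± 0.12 in WT females (0.0371, 0.0785%) and -0.46 ± 0.11 in WT males (0.0183, 13.7%). In KO females it was -0.38 ± 0.10 and did not pass in edgeR (adjusted p = 0.189, with 0.125% of all genes called), while DESeq2 called it (0.0302). Of all genes, DESeq2 called 233 in that comparison, against 16 by edgeR. With offsets for transcript length the calls in WT males (0.156) and WT females (0.102) were lost, and that in WT females also without WTF-CD replicate 1, 3 or 4 or WTF-WD replicate 1, 2 or 3 (0.0809 to 0.173).

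In the mean over the 32 livers 0 of the 12 endothelial markers were called for diet by edgeR, where 19.4% of all genes were called, and 0 by DESeq2. At an unadjusted p under 0.05 edgeR gave 3 of them, and their median log2 fold change was -0.02, against -0.01 over all genes. In WT males the summed CPM of the markers was lower on the WD, at 462 to 548 in WTM-WD livers, against 552 to 591 in WTM-CD livers, without overlap. Their median log2 fold change there was -0.09, against 0.01 over all genes. Of the 12, 1 was called lower by edgeR, where 13.7% of all genes were called. It was Stab1 (-0.37 ± 0.11, adjusted p = 0.0464), named after its values were seen. In the other groups no marker was called by edgeR. Of all genes, 2.6% were called in KO males, 0.0785% in WT females and 0.125% in KO females. The marker sums overlapped in these groups. They were 542 to 595 in KOM-WD livers, against 549 to 603 in KOM-CD livers, 488 to 657 in WTF-WD livers, against 511 to 727 in WTF-CD livers, and 574 to 714 in KOF-WD livers, against 571 to 670 in KOF-CD livers. Of the 8 hepatocyte markers 6 were called lower on the WD in the mean over the 32 livers, where 19.4% of all genes were called. Among them were Alb (log2 fold change -0.46 ± 0.08) and Ttr (-0.45 ± 0.09). The part of either list in the Slco2a1 difference was not tested.

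**Figure D4:**
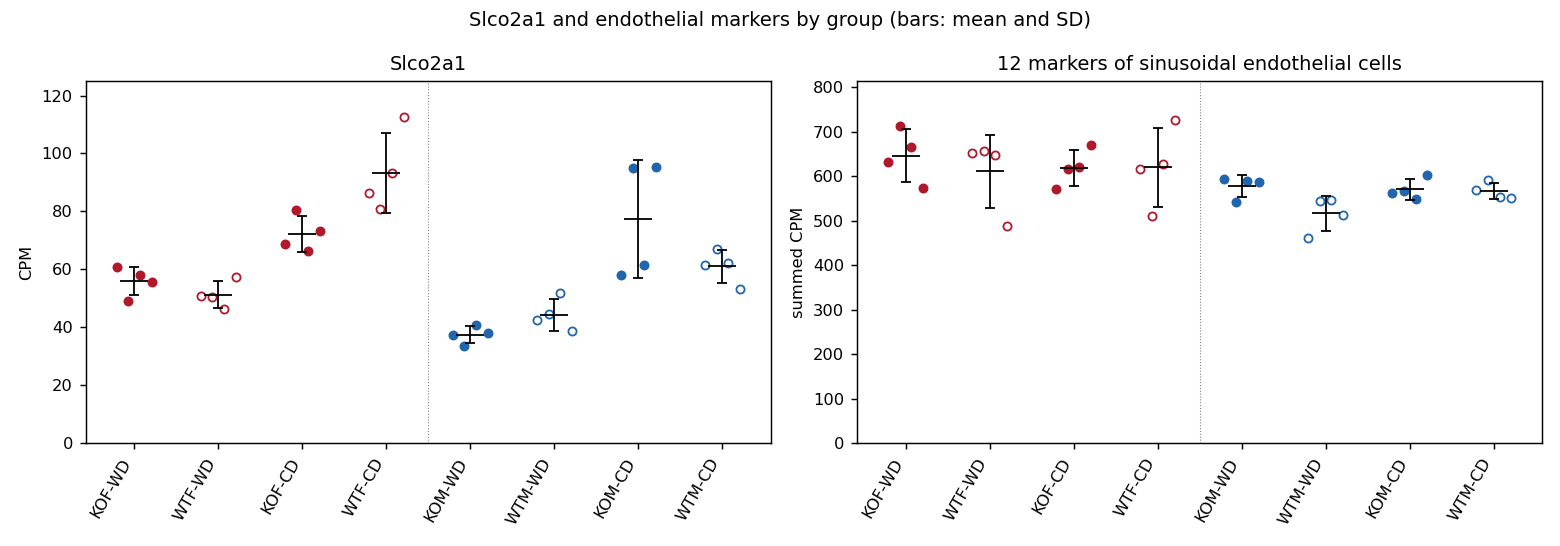
CPM of Slco2a1 (left) and summed CPM of 12 sinusoidal endothelial markers (right) in each liver by group, with the group mean and SD (n = 4). The WD groups of Slco2a1, with at most 60.7 CPM in females and 51.8 CPM in males, lie below the CD groups of the same sex and genotype, whereas the marker sums overlap between the diets in KO mice and WT females and not in WT males (462 to 548 against 552 to 591).

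Slco1b2 was higher on the WD. It had 1440, 1827, 1665 and 1695 CPM in WTM-WD livers, against 1163, 1081, 1275 and 917 CPM in WTM-CD livers, a log2 fold change of 0.58 ± 0.13 (adjusted p = 0.0142 in edgeR). The groups of WT males were apart. Slco1b2 had 1057 to 1636 CPM in WTF-WD livers, against 609 to 1251 CPM in WTF-CD livers, 1080 to 1393 CPM in KOF-WD livers, against 1064 to 1140 CPM in KOF-CD livers, and 969 to 1679 CPM in KOM-WD livers, against 996 to 1452 CPM in KOM-CD livers. In these groups the log2 fold changes were 0.39 ± 0.21 in WT females (adjusted p = 0.647), 0.14 ± 0.10 in KO females (0.717) and 0.05 ± 0.19 in KO males (0.931), and the groups overlapped. The mean over the 32 livers was 0.28 ± 0.09 (0.0199). With offsets for transcript length the call in WT males was lost (0.128).

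Slco1a1 was 1.47-fold higher on the WD in WT males, with a log2 fold change of 0.55 ± 0.12 (adjusted p = 0.0129 in edgeR) and no overlap between WTM-WD (527 to 662.5 CPM) and WTM-CD livers (342 to 460.0 CPM). In KO males the log2 fold change was -0.47 ± 0.23 (adjusted p = 0.329), in WT females -2.16 ± 1.55 (0.732) and in KO females -1.07 ± 1.16 (0.855). Single libraries moved the female values, to -7.29 without WTF-WD replicate 4 (0.177) and to -2.40 without KOF-WD replicate 4 (0.608). The call in WT males was lost with offsets for transcript length (0.109) and in the model of all 32 libraries (0.770). Over the 32 livers the diet gave -0.80 ± 0.48 (0.261). Without WTF-WD replicate 4 this was -2.07 (0.00403), and without the 4 acinar libraries -1.86 (0.0115).

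Slco1a4 and Slco2b1 were not called for diet. Slco1a4 gave a mean log2 fold change of 0.21 ± 0.15 (adjusted p = 0.362 in edgeR), with 28.2 to 216 CPM on the WD, against 25.6 to 156 CPM on the CD. Slco2b1 gave -0.07 ± 0.07 (0.503), with 131.5 to 203 CPM on the WD, against 128 to 213 CPM on the CD.

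Deletion of Nudt7 gave no call for any of the 5 genes, in any of the 4 comparisons of KO with WT mice or in their mean. Few genes passed at all, 0.00814% for KOM-CD against WTM-CD, 0.0162% for KOM-WD against WTM-WD, 0.0314% for KOF-CD against WTF-CD, 0.0156% for KOF-WD against WTF-WD and 0.0886% in the mean over 32 livers. At an unadjusted p under 0.05 edgeR gave 1 of the 5 genes in each of the first 3 of these and 0 in the other two, and DESeq2 called 0 of 5 in all of them. Slco1a1 in males on the WD had the smallest p among these, with the values of KOM-WD livers (284.5 to 472 CPM) all below those of WTM-WD livers (527 to 662.5 CPM), a log2 fold change of -0.63 ± 0.17 and an adjusted p of 0.464. Slco2a1 in females on the CD also had groups that did not overlap, at 66.3 to 80.6 CPM in KOF-CD livers, against 81.0 to 112.5 CPM in WTF-CD livers (-0.37 ± 0.13, adjusted p = 0.697). Slco2b1 in males on the CD gave -0.28 ± 0.12 (0.495), with overlap. How many of all genes had groups that did not overlap was not counted, for these pairs or for those of sex and diet. The lack of overlap is therefore given as a description only. The mean log2 fold changes over 32 livers lay between -0.03 for Slco1b2 and Slco2a1 and 0.08 for Slco1a1, with SEs of 0.07 to 0.09 for Slco1b2, Slco2a1 and Slco2b1, 0.15 for Slco1a4 and 0.48 for Slco1a1.

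No difference between 2 effects was called for the 5 genes. The diet effect of females less that of males (0.244% of all genes called) was -1.64 ± 0.97 for Slco1a1 (adjusted p = 0.535 in edgeR), which passed only without WTF-WD replicate 4 (-4.21, 0.0456), and between -0.04 and 0.18 for the others. The diet effect of KO less that of WT mice (0%, with 1141 genes at an unadjusted p under 0.05 and 3 called by DESeq2) was -0.39 ± 0.17 for Slco1b2 (0.537). Within males (0.0591%) it was -0.53 ± 0.24 for Slco1b2 (0.380), -0.58 ± 0.19 for Slco2a1 (0.232) and -1.02 ± 1.31 for Slco1a1 (0.810). Within females (0%, with 581 genes at an unadjusted p under 0.05 and 5 called by DESeq2) it was 0.50 ± 0.19 for Slco2a1 (adjusted p of 1). The genotype effect of females less that of males (0%, with 1501 genes at an unadjusted p under 0.05 and 48 called by DESeq2) was 0.31 ± 0.14 for Slco2b1 (0.406). At an unadjusted p under 0.05 edgeR gave 0, 1, 2, 1 and 1 of the 5 genes in these contrasts, in the order given, and DESeq2 called 0 in each. The SE of Slco1a1 within males comes from the joint model, whose estimate of the spread takes in the females. In pairs of male groups alone its diet effect was 0.55 ± 0.12 in WT mice and -0.47 ± 0.23 in KO mice. A model of the 16 libraries of 1 sex called no such difference of the diet effect between genotypes.

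**Figure D5:**
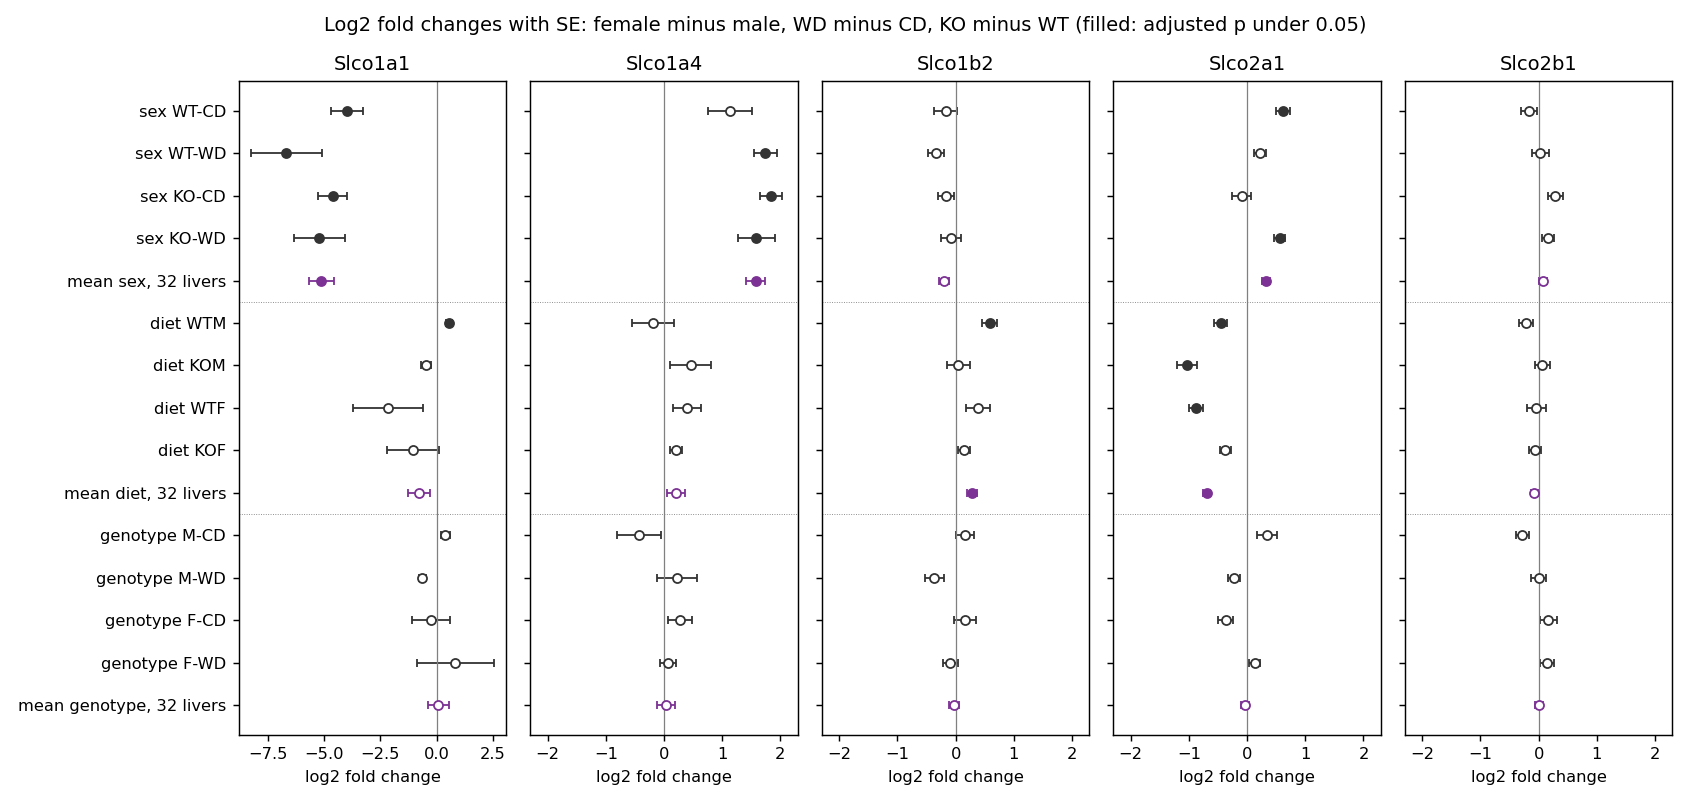
Log2 fold changes with SE of the 5 Slco genes for the comparisons of females with males, of the WD with the CD and of KO with WT mice, in single pairs of groups (black) and as means over the 32 livers (purple), filled where the adjusted p was under 0.05. Slco1a1 has an axis of its own, and its sex effect, with a mean of -5.14, lies far left of those of the other genes, while all genotype effects are open symbols.

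Set in order by mean CPM, the 8 groups formed a ladder with few steps wider than the spread. Slco1a1 ran from WTM-WD (606 ± 61.0 CPM, SD, n = 4) through KOM-CD, WTM-CD, KOM-WD (387 ± 97.6), WTF-CD (26.0 ± 23.6), KOF-CD and KOF-WD to WTF-WD (5.84 ± 11.4), and the step between KOM-WD and WTF-CD was its only one without overlap of neighbours. For Slco1a4, from KOF-WD (172.5 ± 20.3) to KOM-CD (41.7 ± 12.3), for Slco1b2, from WTM-WD (1657 ± 161) to WTF-CD (983 ± 270.3), for Slco2a1, from WTF-CD (93.3 ± 13.8) to KOM-WD (37.5 ± 3.01), and for Slco2b1, from WTM-CD (188.5 ± 13.6) to KOM-CD (154.6 ± 22.2), all neighbours overlapped.

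A single coding transcript took 98.6% of the Slco1b2 counts (ENSMUST00000042812), 90.3% of those of Slco1a4 (ENSMUST00000165990), 88.2% of those of Slco2a1 (ENSMUST00000035148) and 85.5% of those of Slco2b1 (ENSMUST00000107086). The last begins at chr7:99695809, inside the gene, and its share lay between 79.4% and 92.1% in single livers. Slco1a1 counts, in contrast, were divided over the 32 livers between ENSMUST00000042119 (52.1%) and ENSMUST00000168119 (45.2%). Slco1b2 shared no stretch of 31 bases with another gene. Slco2b1 shared 7.19% of its stretches, counted on either strand, 385 of them (6.36% of its stretches) with the gene Gm15635. Reads within these shared stretches may not be told apart.

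The other 12 Slco genes were at low levels. Slco3a1 had 3.20 to 6.49 CPM and Slco1a6, a neighbour of Slco1a1, 0.70 to 2.61 CPM, and only these 2 passed the filter on low counts, with 0 calls by edgeR or DESeq2, and 0 at an unadjusted p under 0.05 in edgeR, in the mean contrasts of sex, diet and genotype over the 32 livers. The mean log2 fold changes between the sexes were 0.11 ± 0.09 for Slco3a1 (adjusted p = 0.358) and -0.14 ± 0.15 for Slco1a6 (adjusted p = 0.514). Slco6b1 and Slco6d1 were at 0 in all libraries.

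Other transporters that work beside the Slco proteins were counted in the means over the 32 livers. Of 13 further basolateral transporters tested, 7 were higher and 3 lower in females (6 and 3 without the acinar libraries), where 31.6% of all genes were called. The nucleoside transporter Slc29a1 (0.51 ± 0.06) and the efflux pump Abcc4 (1.03 ± 0.14) were higher and the organic anion transporter Slc22a7 (-1.14 ± 0.18) lower. With the diet, 4 were higher and 2 lower on the WD (4 and 3 without the acinar libraries), where 19.4% of all genes were called, among them the conjugate exporter Abcc3 (0.95 ± 0.11) and the cholesterol exporter Abca1 (0.40 ± 0.08) on the higher side and Slc29a1 (-0.41 ± 0.06) on the lower side. Slc10a1, the sodium-dependent bile acid transporter that works beside Slco1b2, was lower on the WD in the mean (-0.34 ± 0.08, adjusted p = 0.00228 in edgeR) and is named here after its values were seen. Slc10a1 averaged 433.5 ± 99.6 CPM in KOM-WD livers, against 676 ± 166 CPM in KOM-CD livers, and 547 ± 49.0 CPM in WTM-WD livers, against 857 ± 100.3 CPM in WTM-CD livers. In females it averaged 664.5 ± 74.3 CPM in KOF-WD livers, against 664.5 ± 50.4 CPM in KOF-CD livers, and 589.7 ± 81.2 CPM in WTF-WD livers, against 608 ± 79.9 CPM in WTF-CD livers (SD, n = 4 each), and the diet effect of females less that of males was 0.61 ± 0.16 (adjusted p = 0.0985). Of 9 canalicular transporters, which pass the substrates on into bile, 2 were higher and 3 lower in females, with Abcb1a at 1.83 ± 0.15, the exchanger Slc47a1 at 0.40 ± 0.07 and Abcg2 at -1.44 ± 0.07, and 5 were lower without the acinar libraries. On the WD 5 were higher and 1 lower (0 lower without the acinar libraries), led by the sterol pumps Abcg5 (1.55 ± 0.14) and Abcg8 (1.44 ± 0.11), with Abcg2 at 0.46 ± 0.07.

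Among 16 regulators known to act on hepatic Slco genes, 5 were higher and 3 lower in females (5 and 2 without the acinar libraries), where 31.6% of all genes were called. Cux2, a female-predominant repressor, had 10.4 to 98.2 CPM in females, against 0.227 to 1.16 CPM in males. Nr1i3, which encodes CAR, had 209 to 439 CPM in females, against 69.9 to 310.3 CPM in males (0.92 ± 0.14), and Stat5a was higher by 0.35 ± 0.07. On the WD, where 19.4% of all genes were called, 2 of the 16 were higher, Ppara by 0.54 ± 0.10 and Nr1i3 by 0.47 ± 0.14, and Nr1i3 did not pass without the acinar libraries (adjusted p = 0.0638). Of 16 genes listed as targets of CAR and PXR, 9 were higher and none lower in females by edgeR, beside 31.6% of all genes called, while DESeq2 called 1 lower. The part of these receptors in the sex differences was not tested. The list was chosen with earlier results of these data known, so its counts do not test the receptors. The cytochromes Cyp2b13, with 108 to 267 CPM in females, against 0 to 0.337 CPM in males, and Cyp3a41a, with 1634 to 3850 CPM in females, against 0 to 3.12 CPM in males, had the smallest p, followed by Cyp2b10, with 2.73 to 13.9 CPM in females, against 0 to 3.83 CPM in males. These cytochromes have near-identical relatives, so the division of reads among them is uncertain. On the WD 10 of the 16 were higher and none lower (9 higher without the acinar libraries), beside 19.4% of all genes called, among them the reductase Por (0.95 ± 0.12), Cyp3a11 (1.04 ± 0.18) and the carboxylesterase Ces2a (0.34 ± 0.07). In the genotype mean 0 genes of these 4 lists were called by edgeR or DESeq2, and 2, 0, 2 and 1 had an unadjusted p under 0.05 in edgeR.

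The genes whose log2 CPM ran most like each of the 5 over the 32 livers, among 13538 others, shared the group structure of the libraries, and the correlations are given as descriptions. Slco1a1 was followed most closely by Slc22a28 (Pearson r = 0.946), the steroid dehydrogenase Hsd3b5 (0.942) and Ces3a (0.939). Hsd3b5 had 0 to 3.40 CPM in females, against 52.2 to 243.5 CPM in males. Slco1a4 was followed by 9030619P08Rik (0.919) and the flavin monooxygenases Fmo1 (0.912) and Fmo2 (0.903), and Fmo2 had 24.9 to 66.4 CPM in females, against 6.76 to 17.8 CPM in males. Among the genes most like Slco1b2, which was not called between the sexes, was Synj2bp (0.894). Slco2a1 ran with Afm (0.816), the vasopressin receptor Avpr1a (0.811) and Abca2 (0.811), and Avpr1a had 10.8 to 58.7 CPM on the WD, against 46.1 to 95.4 CPM on the CD. Slco2b1, which was called for neither sex nor diet, had the lowest values, with Slc20a2 (0.754), Tmem63a (0.749) and Slc38a3 (0.74).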

How the data were processed

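Poly(A) RNA libraries of 32 mouse livers were sequenced as 50-base read pairs. The authors quantified transcripts with Salmon 1.3.0 against a decoy-aware index of GRCm38 and tested with DESeq2 1.28.1. Each deposited file gives the estimated count (expected count, not normalized) and the TPM of 117135 transcripts, of which TPM is scaled by transcript length and library total. Lengths in the deposited files, in bases as other values, served the offsets.

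Gene sums of the estimated counts, rounded, were made with the GENCODE vM21 annotation, which held 115973 of the transcripts. Between 0.315% and 0.424% of a library's counts fell on transcripts outside this annotation. Counts of 10140048 to 15825078 per library set the precision, and levels near 1 count carry counting error. Each of 12 pairs of groups (4 against 4) was tested by the quasi-likelihood F test of edgeR 4.0.16 in R 4.3.3 after TMM scaling, with robust estimation, keeping genes that reached 10 counts in 4 or more libraries, and 8 contrasts were tested in a joint model of the 32 libraries. The Benjamini-Hochberg adjustment ran over all genes of a test, with a threshold of 0.05. Values are mean ± SD, log2 fold changes ± SE. Each library is 1 mouse, and no pair within a group was a duplicate. The labels give no batch.

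Alternatives were RLE size factors, no filter, length offsets, a removed length trend, the replicate number as a block, DESeq2 1.42.0, the joint model for the pairs, and leaving out the acinar libraries (over 10 times the median) or each library in turn. Added after seeing the data was a model of the 16 libraries of 1 sex. The fits were tested on simulated data with 200 changed genes. Named are the 5 Slco genes, up to 3 called genes per list and contrast with the smallest p, and the 3 genes with the highest Pearson correlation of log2 CPM (prior count 1) to each. Some of the genes this rule names are not reported here. The Slco genes and the lists were chosen with earlier results of these data known. Tables were handled in Python 3.11.15 with pandas 2.3.3, NumPy 2.4.6 and matplotlib 3.10.9.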

Additional observations from a re-analysis of the deposited data

Results flagged for a closer look

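In 40 sets of 4 livers, one for each of the 5 genes in each of the 8 groups, a gap of 1 liver to the rest beyond Dixon's 95% critical value occurred 3 times, and chance alone gives it in about 1 group in 20. Slco1a1 in WTF-WD replicate 4 had 22.9 CPM (gap 0.991), against 0.0722 to 0.285 CPM in the other 3 WTF-WD livers. Slco1a4 in WTF-CD replicate 2 had 66.9 CPM (gap 0.844), below 135 to 147 CPM in the other 3. Slco2b1 in KOF-WD replicate 4 had 155.9 CPM (gap 0.848), below 186.5 to 192 CPM in the other 3. The first 2 libraries also carried acinar transcripts, at 463 and 6086 CPM, and the part of these in the Slco levels was not tested.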

How the results depend on the processing

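Of the 19 calls for the 5 genes over 20 comparisons, 19 were kept with RLE size factors, with the length trend removed and with DESeq2, which added 2, and 14 with offsets for transcript length and 15 without a filter. DESeq2 also called more of all genes than edgeR in every comparison, such as 805 against 323 for the diet in KO males. Under the other alternatives the share of all genes called was not counted. The mean effects of sex and diet that passed did so in every alternative. The replicate numbers did not pair the mice, since deviations from the group means correlated at 0.00516 on average for livers of the same number and at -0.00146 for others, and 28 of 96 comparisons of a liver with the group set against it ranked its own number first. With the number as a replicate block 12 of the 19 calls were kept. Not kept were the sex effect of Slco1a1 in the 4 pairs (adjusted p = 0.05232 to 0.1534) and of Slco2a1 in WT on the CD, and the diet effect of Slco1a1 in WT males and of Slco2a1 in WT females. A model of the 16 libraries of 1 sex, chosen after seeing the data, called 0 of 10 differences of the diet effect between genotypes, as the joint model did. The mean diet effect of Slco1a1 was -1.859 without the acinar libraries (adjusted p = 0.0115) and passed there and without WTF-WD replicate 4 only.

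Small effects that passed no test changed sign. In the mean genotype effect this held for Slco1a4 with length offsets (-0.011) and, without the acinar libraries, for Slco2a1 (0.004) and Slco2b1 (-0.045). For the genotype in males on the WD, Slco2b1 gave -0.003 with RLE or DESeq2, -0.036 with length offsets, -0.004 with the length trend removed and -0.013 in the 32-library model. Without the acinar libraries, the genotype in females on the WD gave 0.035 for Slco1b2, the sex effect in WT on the CD 0.032 for Slco2b1, the diet effect of females less males -0.054 for Slco2b1 and the diet effect of KO less WT females 0.171 for Slco1a4. With length offsets, the sex effect in WT on the WD gave -0.038 and the diet effect of KO less WT females 0.004 for Slco2b1, and the diet effect of females less males 0.015 for Slco1b2. With the length trend removed the last gave -0.008 for Slco2b1, and with the replicate block the diet effect of KO less WT was -0.018 for Slco1a1.

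With 1 library left out, the mean diet effect of Slco1a1 lay between -2.07 and -0.604, the mean sex effect of Slco1b2 between -0.225 and -0.149, and the mean genotype effect between -0.253 and 1.36 for Slco1a1, -0.028 and 0.089 for Slco1a4 and -0.02 and 0.038 for Slco2b1. Among effects that passed with no set of libraries, the sign changed for Slco1a1 in the diet effect of KO less WT (-0.635 to 2.593; in females -0.237 to 6.217) and in the genotype effect of females less males (-0.248 to 2.979) and in CD females (-0.628 to 0.476). For Slco1a4 it changed in the diet effect of KO less WT females (-0.289 to 0.005) and of WT males (-0.428 to 0.019). For Slco1b2 it changed in the diet effect of females less males (-0.121 to 0.044) and of KO males (-0.11 to 0.148), the genotype effect in CD females (-0.002 to 0.291) and WD females (-0.174 to 0.035), and the sex effect in KO on the WD (-0.178 to 0.085) and WT on the CD (-0.292 to 0.009). For Slco2a1 it changed in the diet effect of KO less WT (-0.098 to 0.019) and the sex effect in KO on the CD (-0.208 to 0.022). For Slco2b1 it changed in the diet effect of females less males (-0.012 to 0.102), KO less WT females (-0.162 to 0.055), KO females (-0.137 to 0.005), KO males (-0.025 to 0.15) and WT females (-0.119 to 0.099), the genotype effect in WD males (-0.065 to 0.123) and the sex effect in WT on the WD (-0.045 to 0.151).

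Slco1a1 levels near 1 count in females on the WD limit its fold changes there.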
